A study of Rattus norvegicus with 12 samples.

Results

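The insulin-like growth factor (IGF) genes examined here were the ligands Igf1 and Igf2, the receptors Igf1r and Igf2r, and the binding proteins Igfbp2, Igfbp3, Igfbp4, Igfbp5, Igfbp6 and Igfbp7. They were chosen by name as members of 1 signalling family, and all 10 were found among the 32623 genes counted in the rat L5 spinal dorsal horn. Igf1 and Igf2 are secreted growth factors that act mainly through Igf1r, a receptor tyrosine kinase that feeds the PI3K-Akt pathway. Igf2r carries no kinase, takes up Igf2 for degradation and sorts lysosomal enzymes. The binding proteins hold the ligands outside the cell, lengthen or block their action, and release them when proteases such as Pappa cut them. In the adult nervous system the ligands come from neurons, glia, vessels and the meninges, and act on neuron survival, myelination and the excitability of sensory pathways.

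All rats were 8-week-old heterozygous OT-hM3Dq-mCherry Wistar rats, in which the oxytocin (OT) promoter drives hM3Dq, an excitatory designer receptor, fused to the red protein mCherry in OT neurons of the hypothalamus. They received clozapine-N-oxide (CNO, 1 mg per kg), which activates hM3Dq, or Saline by subcutaneous injection 120 min before the cord was taken. Both treatments carried the transgene, and no library of rats without it is analysed here, so effects of CNO on OT neurons and effects of CNO on anything else cannot be told apart. The superficial layer (laminae I–II), where pain and itch fibres end, and the deep layer (laminae III–VI) were laser-microdissected from 3 rats per treatment and sequenced separately, giving 3 CNO and 3 Saline libraries in each layer, 12 libraries in all.

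Total counts per library lay between 5245952 and 7889953. Values are given as counts and as CPM, the usual scaling of counts to library size, with library sizes adjusted by TMM over the 12 libraries. In laminae I–II 8 of 8 superficial dorsal horn markers were higher, against 31.3% of all genes, and 7 of 7 deep markers lower, against 31.2%. These lists were chosen with earlier results of these data known, so they are no independent check of the layer labels. Library I–II Saline 3 stood apart. The summed level of 13 fibroblast and meninges markers was 776 CPM in it, against 324 to 339 CPM in the I–II CNO libraries and 341 and 375 CPM in the other I–II Saline libraries. Schwann cell markers other than Mbp and Sox10 also separated the treatments in this layer, with 35.0 to 109.4 CPM in CNO and 234 to 560 CPM in Saline. Results that rest on I–II Saline libraries are therefore given with these values.

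The promoters of Igfbp5, Igfbp2 and Igfbp6 are shown because these genes carry the main results: Igfbp5 had the largest layer difference of the 10 genes, Igfbp2 is its neighbour on chromosome 9 with the opposite layer difference, and Igfbp6 was the 1 gene of the family whose CNO effect differed between the layers. Each line holds 250 bases before and 50 after the transcript start, 5′ to 3′, from RefSeq on the GRCr8 build; all 10 genes had such a window and Igf2 had 2. Capitals mark matches, on either strand, to the TATA box letters TATAAA, the GC box letters GGGCGG or the E-box letters CACGTG. No printed matches overlap each other.
Igfbp5 (chr9:81914138-81914437, - strand): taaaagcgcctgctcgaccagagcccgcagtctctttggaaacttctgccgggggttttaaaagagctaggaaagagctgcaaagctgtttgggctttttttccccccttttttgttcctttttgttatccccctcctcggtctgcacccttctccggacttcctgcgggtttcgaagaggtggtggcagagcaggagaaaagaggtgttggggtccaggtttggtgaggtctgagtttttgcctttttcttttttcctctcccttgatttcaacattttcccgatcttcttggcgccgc
Igfbp2 (chr9:81864561-81864860, + strand): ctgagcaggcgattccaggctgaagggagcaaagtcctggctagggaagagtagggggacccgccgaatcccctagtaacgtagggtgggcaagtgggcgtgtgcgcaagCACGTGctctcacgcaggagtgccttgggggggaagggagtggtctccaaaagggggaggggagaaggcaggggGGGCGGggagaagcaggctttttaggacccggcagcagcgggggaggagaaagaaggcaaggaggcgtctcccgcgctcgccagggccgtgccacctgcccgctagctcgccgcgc
Igfbp6 (chr7:135154669-135154968, + strand): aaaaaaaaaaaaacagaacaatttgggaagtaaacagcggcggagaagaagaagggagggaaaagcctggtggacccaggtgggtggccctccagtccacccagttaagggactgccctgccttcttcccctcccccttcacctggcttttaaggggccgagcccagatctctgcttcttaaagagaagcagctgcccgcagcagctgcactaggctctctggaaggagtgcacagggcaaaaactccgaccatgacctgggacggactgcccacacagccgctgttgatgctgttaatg

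The Igfbp2 window held 1 GGGCGG and 1 CACGTG, and none of the 3 motifs was found in the windows of Igfbp5 and Igfbp6. The share of G and C was 50.7% for Igfbp5, 66.7% for Igfbp2 and 55.3% for Igfbp6, with a median of 51.7% over 33469 rat promoter windows. Across the family GGGCGG occurred in 6 of 11 windows, from 5 genes, against 33.06% of all windows. CACGTG occurred in 3 of the 11, from Igf1r, Igf2r and Igfbp2, against 6.42%. TATAAA occurred in 1 of the 11, from Igfbp4, against 14.22%. A match describes letters in the window and no binding was measured.

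In the deposited annotation of the older rn6 build the family was spread over 5 chromosomes. Igfbp2 (chr9:80118029-80144789) and Igfbp5 (chr9:80150211-80167033) lay tail to tail, 5421 bases apart. Igfbp6 lay at chr7:143749221-143754054 and Igf1 at chr7:28412198-28486609. Igfbp3 (chr14:87457647-87465374) was 3861 bases from Igfbp1, which had only 20 counts in all 12 libraries. Igfbp7 (chr14:33010300-33070190) overlaps Polr2b on the opposite strand, a subunit gene of RNA polymerase II with 8515 counts; whether strand was used in counting is not given in the sources used here, so reads from these overlapping genes may not be separated. Igf2 (chr1:215828102-215846911) overlaps a pseudogene and Mir483, each with 0 counts.

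**Figure D1:**
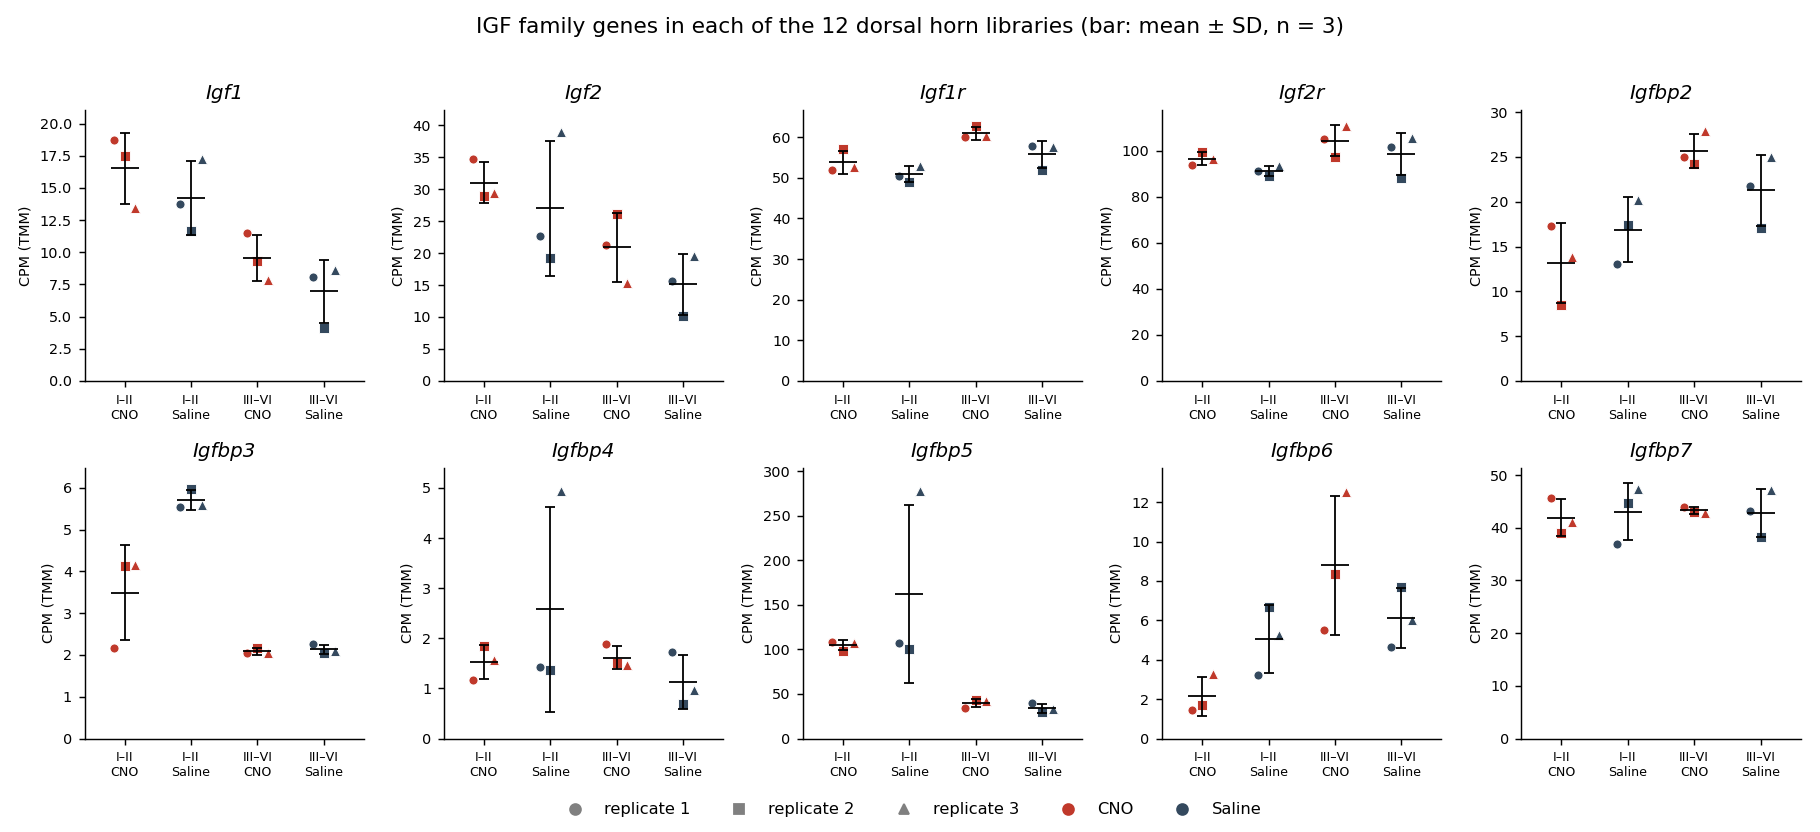
CPM after TMM scaling (vertical axis, from 0) of the 10 IGF family genes in each library, with CNO in red, Saline in blue and a symbol for each replicate number; black bars give the mean and SD of 3 libraries. Igfbp5 stood between 98.5 and 277 CPM in superficial libraries and between 29.5 and 42.9 CPM in deep ones, and its highest point is I–II Saline 3.

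The family was first compared between the layers. Comparing laminae I–II with III–VI over all 12 libraries, with the rat as a block, 8 of the 10 genes differed at an adjusted p under 0.05 (edgeR quasi-likelihood test, Benjamini-Hochberg over 13745 genes), as did 62.5% of all genes tested. Both ligands, Igfbp3 and Igfbp5 were higher in laminae I–II (4 genes, against 31.3% of all genes). Both receptors, Igfbp2 and Igfbp6 were lower there (4 genes, against 31.2%), although the sign of the receptors turned when libraries were scaled by their totals alone. Igfbp4 and Igfbp7 did not pass the test. The absolute log2 difference had a median of 0.68 over the 10 genes and of 0.28 over all genes. The groups did not overlap in CPM for 2 of the 10 genes, Igf1 and Igfbp5, against 35.3% of all genes. In dissected tissue, fewer cells of a type and less RNA per cell cannot be told apart.

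Igf1, the main ligand of Igf1r, had 18.7, 17.5 and 13.4 CPM in I–II CNO libraries and 13.8, 11.6 and 17.3 CPM in I–II Saline libraries. In laminae III–VI it had 11.5, 9.34 and 7.87 CPM in CNO libraries and 8.10, 4.11 and 8.66 CPM in Saline libraries. Every superficial library was thus above every deep one. The mean was 15.4 ± 2.81 CPM for superficial and 8.25 ± 2.41 CPM for deep libraries (SD, n = 6 each), a log2 difference of 0.91 ± 0.11 (SE; edgeR adjusted p = 5.35e-08). Within a rat the superficial level was 1.63 to 1.87 times the deep one after CNO and 1.70 to 2.83 times after Saline. Of microglia and macrophage markers 8 of 9 were also higher in laminae I–II, against 31.3% of all genes. Their summed level was 179 to 242 CPM there and 113 to 179 CPM in laminae III–VI. In each layer Saline 2 had the highest sum and the lowest Igf1. Also higher were 5 of 7 Schwann cell, 6 of 12 fibroblast and meninges and 5 of 10 astrocyte markers, while 1, 1 and 3 were lower. Of 10 mural cell markers 1 was higher and 7 lower, and of 10 oligodendrocyte lineage markers 1 and 8. Of 10 neuron markers 2 were higher and 6 lower, and of 7 endothelial markers 0 and 1. The part of any of these cells in the Igf1 difference was not tested.

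Igf2, an imprinted growth factor made in the adult brain largely by the meninges and choroid plexus, had 34.7, 28.9 and 29.5 CPM in I–II CNO libraries and 22.7, 19.3 and 39.0 CPM in I–II Saline libraries. In laminae III–VI the CNO libraries had 21.2, 26.2 and 15.3 CPM and the Saline libraries 15.7, 10.102 and 19.5 CPM. The layers overlapped in their ranges, but all 6 rats had more Igf2 in laminae I–II than in III–VI, by 1.11 to 1.99 times. The log2 difference was 0.71 ± 0.09 (SE; edgeR adjusted p = 2.57e-07). It was 0.64 without the rat of library Saline 3, the library with the high fibroblast and meninges markers (adjusted p = 6.91e-06).

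The receptors differed little between the layers. Igf1r had 49.0 to 57.1 CPM in the 6 superficial libraries (mean 52.4 ± 2.74) and 51.9 to 62.9 CPM in the 6 deep libraries (mean 58.4 ± 3.71, SD). It was lower in laminae I–II in 6 of 6 rats, with a log2 difference of -0.16 ± 0.05 (SE; edgeR adjusted p = 0.0070). Igf2r, the receptor that clears Igf2, averaged 93.9 ± 3.73 CPM over superficial and 101.5 ± 7.82 CPM over deep libraries (SD, n = 6 each), a log2 difference of -0.11 ± 0.04 (SE; edgeR adjusted p = 0.027), and was lower in 4 of 6 rats. With libraries scaled by their totals alone the values were 0.022 for Igf1r and 0.067 for Igf2r; the median gene then stood at 0.19, against 0.016 with TMM. DESeq2 called neither receptor (adjusted p = 0.107 and 0.180).

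Igfbp5, a binding protein that attaches to the extracellular matrix, had the largest layer difference of the family. In laminae I–II it had 108.9, 98.5 and 107.0 CPM in CNO libraries and 107.8, 101.0 and 277.4 CPM in Saline libraries. In laminae III–VI it had 34.7, 42.9 and 42.0 CPM in CNO libraries and 39.4, 29.5 and 33.6 CPM in Saline libraries. The lowest superficial library was above the highest deep one, and 5 of the 6 superficial libraries lay within 98.5 to 108.9 CPM. The log2 difference was 1.79 ± 0.11 (SE), a 3.45-fold difference (edgeR adjusted p = 2.97e-13), and 1.49 without the rat of I–II Saline 3 (adjusted p = 2.49e-18). In the CNO rats alone it was 1.40 (edgeR adjusted p = 1.50e-20). Their superficial libraries had lower Schwann and fibroblast marker sums than the Saline ones. Their Schwann sum without Mbp and Sox10, 35.0 to 109.4 CPM, still reached above the 29.0 to 40.0 CPM of the deep CNO libraries. The part of these cells in the Igfbp5 layer difference was not tested.

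Igfbp2, a binding protein abundant in cerebrospinal fluid and the neighbour of Igfbp5, went the other way. It had 17.3, 8.42 and 13.9 CPM in I–II CNO libraries and 13.0, 17.4 and 20.2 CPM in I–II Saline libraries. The deep libraries had 25.0, 24.2 and 27.8 CPM after CNO and 21.8, 17.1 and 25.0 CPM after Saline. It was lower in laminae I–II in 5 of 6 rats, with a log2 difference of -0.65 ± 0.10 (SE; edgeR adjusted p = 6.22e-06).

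Igfbp3, the main carrier of the ligands in plasma, was read at low depth, with 15 to 35 counts in superficial and 12 to 17 counts in deep libraries. Its level was 2.18, 4.13 and 4.15 CPM in I–II CNO libraries and 5.54, 5.98 and 5.59 CPM in I–II Saline libraries. All 6 deep libraries lay between 2.04 and 2.26 CPM, with means of 2.08 ± 0.07 CPM after CNO and 2.14 ± 0.11 CPM after Saline (SD, n = 3 each). Only I–II CNO 1, with 15 counts, reached into that range. The layers differed by 1.07 ± 0.21 on the log2 scale (SE; edgeR adjusted p = 7.15e-05), by 0.73 in CNO rats alone (adjusted p = 0.045) and by 1.41 in Saline rats alone (adjusted p = 2.54e-04).

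Igfbp6, a binding protein that prefers Igf2 to Igf1, was lower in laminae I–II in 6 of 6 rats, but to a different extent by treatment. It had 1.45, 1.68 and 3.29 CPM in I–II CNO libraries (10, 11 and 23 counts), against 3.22, 6.66 and 5.26 CPM in I–II Saline libraries (18, 39 and 32 counts). In laminae III–VI it had 5.49, 8.34 and 12.5 CPM in CNO libraries (35, 50 and 86 counts), against 4.65, 7.71 and 6.00 CPM in Saline libraries (35, 45 and 43 counts). The pooled layer difference was -1.15 ± 0.16 on the log2 scale (SE; edgeR adjusted p = 6.69e-07). In CNO rats alone it was -2.02 (adjusted p = 2.02e-09), and in Saline rats alone -0.28, which did not pass the test (adjusted p = 0.326).

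Igfbp7, a secreted relative that binds IGFs weakly, averaged 42.5 ± 4.08 CPM over superficial and 43.1 ± 2.89 CPM over deep libraries (SD, n = 6 each). Its log2 difference of -0.021 had a 95% interval from -0.15 to 0.10 and an edgeR adjusted p of 0.784. Igfbp4, a target of the protease Pappa, was near the limit of detection, with 8 to 30 counts per library in laminae I–II and 4 to 13 in laminae III–VI. I–II Saline 3 had 4.93 CPM of it and the other superficial libraries 1.16 to 1.84 CPM. Its layer difference of 0.52 on the log2 scale did not pass the test (edgeR adjusted p = 0.162) and was -0.083 in CNO rats alone.

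**Figure D2:**
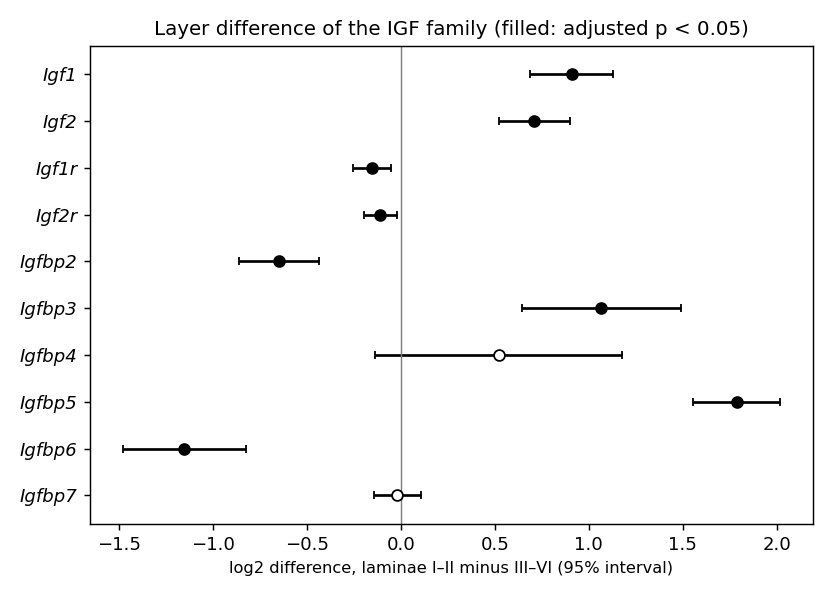
Log2 difference between laminae I–II and III–VI (horizontal axis) for each gene over 12 libraries, with 95% intervals; filled points passed an adjusted p of 0.05. Igfbp5 lies farthest to the right at 1.79 and Igfbp6 farthest to the left at -1.15.

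**Figure D3:**
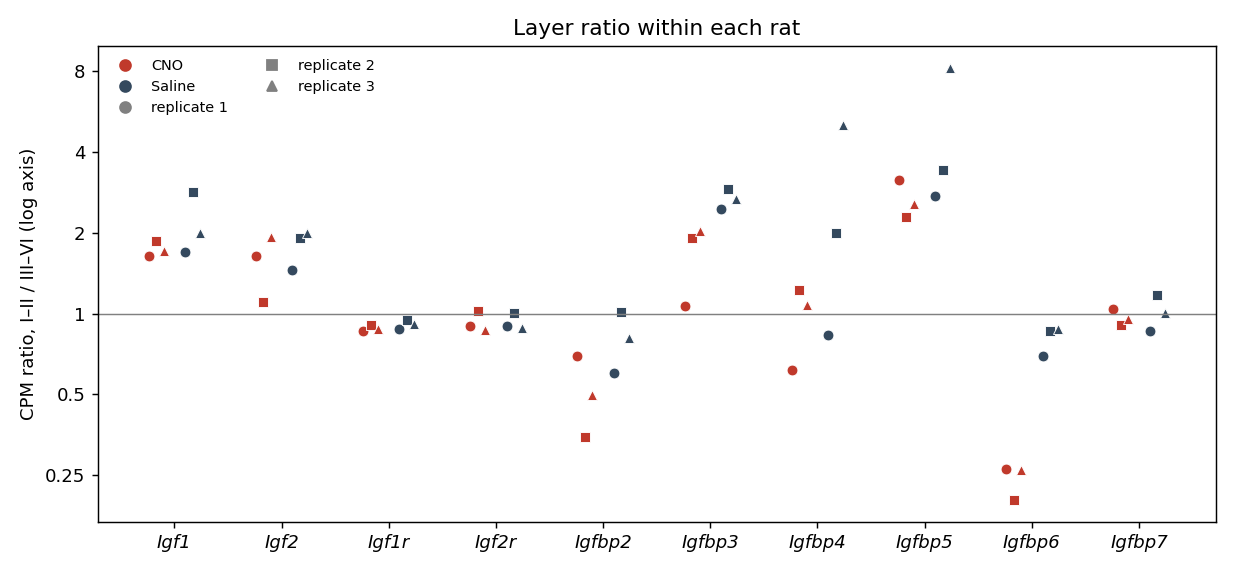
Ratio of CPM in laminae I–II to CPM in laminae III–VI within each rat (vertical axis, log scale), with CNO rats in red, left of Saline rats in blue. The 3 CNO rats had Igfbp6 ratios of 0.20 to 0.26 and the 3 Saline rats 0.69 to 0.88.

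CNO was compared with Saline in each layer to ask whether activating OT neurons altered the family in the dorsal horn. In laminae I–II, 0 of the 9 genes tested passed an adjusted p of 0.05 in edgeR, against 0.142% of 13344 genes, and 3 had an unadjusted p under 0.05, against 7.05% of all genes. Igfbp4 fell under the low-count filter. DESeq2, the edgeR exact test, limma-voom and limma on the quantile-normalized counts also called 0, while edgeR without the low-count filter called 2, Igfbp5 and Igfbp6 (adjusted p = 1.12e-13 and 0.016). With the filter, the Igfbp5 difference was -0.64, and -0.0035 without I–II Saline 3. Of the 9 genes 4 had positive and 5 negative log2 differences, with a median of -0.049, against -0.0032 over all genes. The ranges of CNO and Saline libraries did not overlap for 2 of the 9, Igf2r and Igfbp3, against 11.8% of all genes.

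The 3 genes with a small unadjusted p in laminae I–II were binding proteins, each with a lower mean after CNO. Igfbp6 averaged 2.14 ± 1.00 CPM in CNO and 5.05 ± 1.73 CPM in Saline libraries (SD, n = 3 each). The log2 difference was -1.24 ± 0.35 (SE; edgeR unadjusted p = 0.0022, adjusted p = 0.353), and 1 CNO library, at 3.29 CPM, lay above the lowest Saline library, at 3.22 CPM. Igfbp3 averaged 3.49 ± 1.13 CPM in CNO and 5.70 ± 0.24 CPM in Saline libraries, with no overlap (log2 difference -0.72 ± 0.27, SE; edgeR unadjusted p = 0.016, adjusted p = 0.575). Igfbp5 averaged 104.8 ± 5.56 CPM in CNO and 162.1 ± 100.0 CPM in Saline libraries (log2 difference -0.64 ± 0.24, SE; edgeR unadjusted p = 0.014, adjusted p = 0.568). It rested on 1 library: without I–II Saline 3 it was -0.0035.

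Markers of other cells moved with the treatment in the same libraries. Of 7 Schwann cell markers tested 4 were lower after CNO, as were 2 of 12 fibroblast and meninges markers. Over all genes 0.142% were called, in either direction. Col3a1, a fibrillar collagen, had 19.3 to 24.6 CPM in CNO and 26.1, 33.1 and 189.5 CPM in Saline libraries. Col1a1, another collagen of the list, overlapped, with 29.9, 34.9 and 30.8 CPM in CNO and 27.3, 38.6 and 140.4 CPM in Saline libraries. In laminae III–VI the Schwann sum without Mbp and Sox10 was 29.0 to 40.0 CPM after CNO and 34.8 to 39.7 CPM after Saline. Their part in the values of Igfbp3, Igfbp5 and Igfbp6 was not tested. Total counts were also larger in all 3 I–II CNO libraries (6095833 to 6576869) than in the I–II Saline libraries (5245952 to 5694619).

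**Figure D4:**
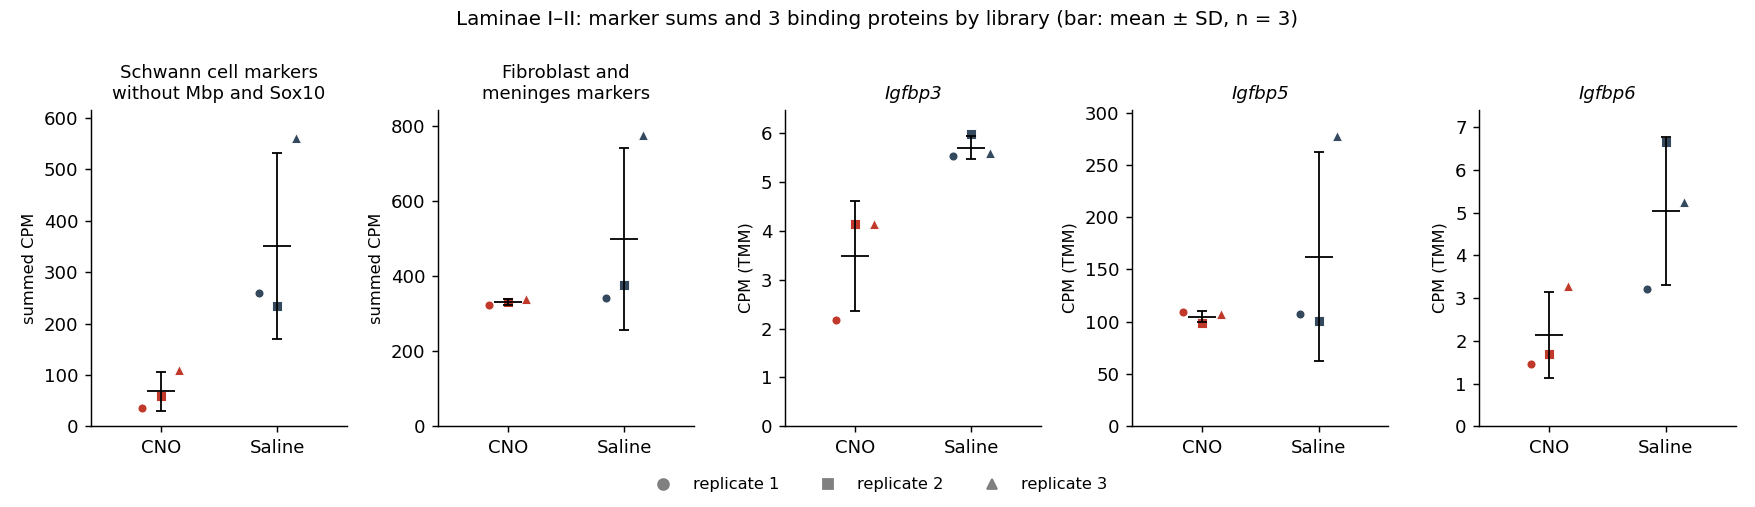
Laminae I–II only: summed CPM of the Schwann cell list without Mbp and Sox10, summed CPM of the fibroblast and meninges list, and CPM of Igfbp3, Igfbp5 and Igfbp6 in each library, CNO in red and Saline in blue; black bars give the mean and SD of 3 libraries. Saline replicate 3 (triangle) is highest for both marker sums (560 and 776 CPM) and for Igfbp5 (277 CPM), and is not the highest for Igfbp3 or Igfbp6.

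The ligands and receptors in laminae I–II had small differences with intervals that held 0. The log2 difference between CNO and Saline was 0.20 for Igf1 (95% interval -0.14 to 0.55), 0.19 for Igf2 (-0.18 to 0.55), 0.072 for Igf1r (-0.11 to 0.25) and 0.073 for Igf2r (-0.072 to 0.22). Igf2r nevertheless did not overlap, with 94.1, 99.5 and 96.4 CPM in CNO libraries and 91.1, 89.0 and 93.5 CPM in Saline libraries. With libraries scaled by their totals alone Igf2r did overlap, and 1 of the 9 genes, Igfbp3, did not. For Igfbp2 the log2 difference was -0.37 (-0.80 to 0.061), and -0.13 without CNO replicate 2; for Igfbp7 it was -0.049 (-0.27 to 0.17).

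In laminae III–VI, 0 of the 10 genes passed the test in edgeR, against 0.137% of 13117 genes, and 2 had an unadjusted p under 0.05, against 9.24% of all genes. The edgeR exact test, limma-voom and limma on the quantile-normalized counts called 0, and DESeq2 called 0 of the 2 genes, Igf1r and Igf2r, to which it gave an adjusted p. Log2 differences were positive for 9 of the 10, with a median of 0.23, against -0.0051 over all genes. Only Igf1r did not overlap, with 60.0, 62.9 and 60.2 CPM in CNO and 57.9, 51.9 and 57.7 CPM in Saline libraries, against 14.5% of all genes. Its log2 difference was 0.12 (95% interval -0.044 to 0.28).

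Igf2 averaged 20.9 ± 5.44 CPM in III–VI CNO and 15.1 ± 4.75 CPM in III–VI Saline libraries (SD, n = 3 each), a log2 difference of 0.43 ± 0.19 (SE; edgeR unadjusted p = 0.035, adjusted p = 0.498). For Igf1 the means were 9.56 ± 1.80 CPM after CNO and 6.95 ± 2.48 CPM after Saline (log2 difference 0.42, 95% interval -0.048 to 0.89). The lowest library for both ligands was III–VI Saline 2, with 24 counts of Igf1 and 59 of Igf2. With 1 library left out, the log2 difference ran from 0.24 to 0.66 for Igf2 and from 0.18 to 0.60 for Igf1, each lowest without III–VI Saline 2. Igfbp6 averaged 8.79 ± 3.54 CPM after CNO and 6.12 ± 1.53 CPM after Saline, with overlapping libraries (log2 difference 0.55 ± 0.26, SE; edgeR unadjusted p = 0.045, adjusted p = 0.521). That value ran from 0.19 without III–VI CNO 3 to 0.80 without III–VI CNO 1. The log2 differences of Igfbp2 and Igfbp5 were 0.26 (-0.010 to 0.52) and 0.21 (-0.024 to 0.44), and those of Igfbp3, Igfbp4 and Igfbp7 were -0.045, 0.46 and 0.0050.

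In the deep layer 1 of 7 deep dorsal horn markers was higher after CNO in edgeR (Nefh, log2 difference 0.50). So was 1 of 10 neuron markers (Nefl, 0.37), like Nefh a neurofilament gene. Of 6 motor neuron markers 3 were tested and 1 was higher (Prph, 0.81), while Slc18a3 had no counts in any library. Over all genes 0.137% were called, in either direction. The median log2 difference was 0.21 over the deep and 0.079 over the neuron markers. The summed level of 7 deep dorsal horn markers was 7654 to 8777 CPM in III–VI CNO libraries and 5788 to 6878 CPM in III–VI Saline libraries, and that of 10 neuron markers was 9813 to 10766 CPM after CNO and 8515 to 9237 CPM after Saline. Their part in the deep values of Igfbp6 and the ligands was not tested.

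**Figure D5:**
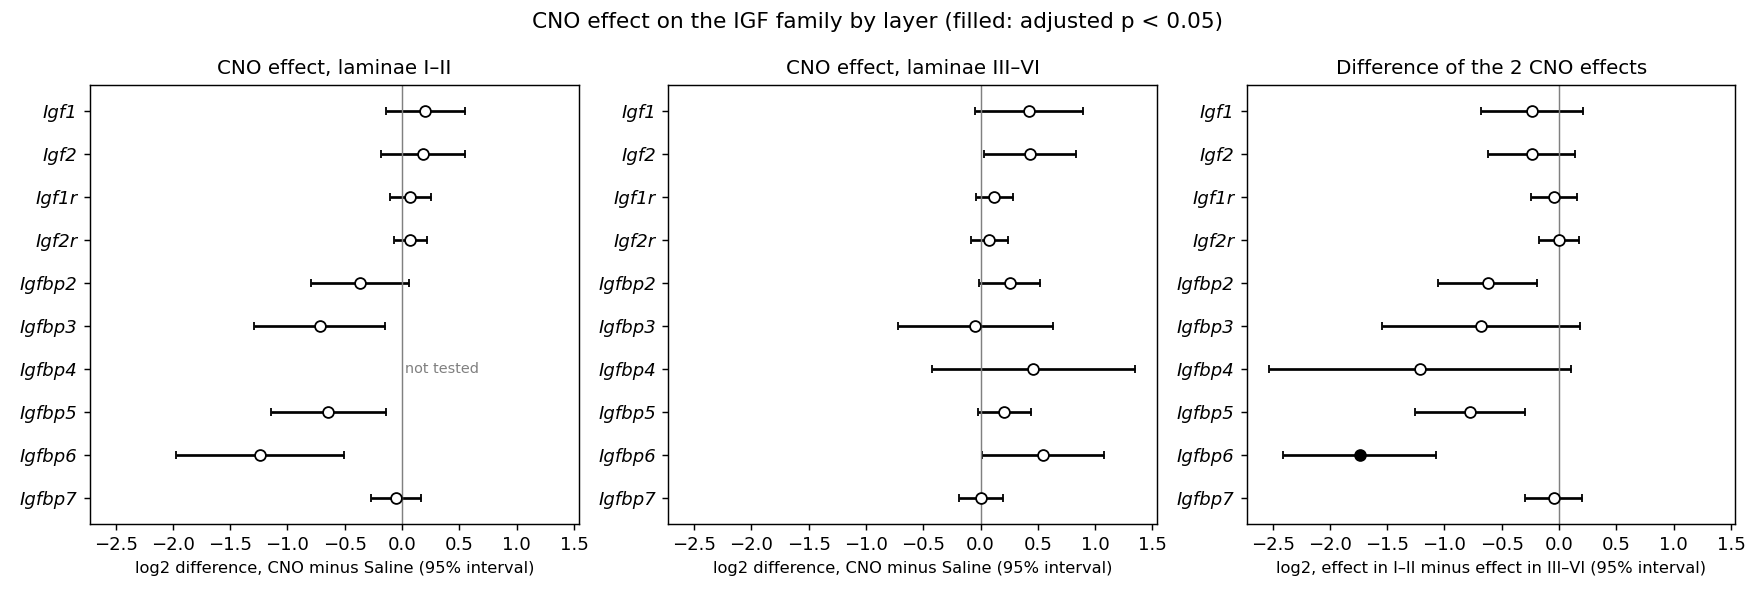
Log2 difference between CNO and Saline (horizontal axis, 95% intervals) in laminae I–II (left) and laminae III–VI (middle), and the difference of the CNO effects between the layers (right); filled points passed an adjusted p of 0.05. The 1 filled point is Igfbp6 in the right panel, at -1.74, and Igfbp4 was not tested in laminae I–II.

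Whether the CNO effect differed between the layers was tested directly, as the interaction of treatment and layer with the rat as a block. It passed the test for 1 of the 10 genes, Igfbp6, against 0.429% of 13745 genes. Its CNO effect was lower in laminae I–II than in III–VI by a log2 value of -1.74 ± 0.32 (SE; 95% interval -2.41 to -1.08, edgeR adjusted p = 0.0094). From the same values, the within-rat ratio of superficial to deep Igfbp6 was 0.264, 0.202 and 0.262 in the CNO rats. It was 0.693, 0.865 and 0.876 in the Saline rats, without overlap. Igfbp3 ratios did not overlap either, at 1.07 to 2.03 after CNO and 2.46 to 2.91 after Saline. The Igfbp3 interaction did not pass (edgeR adjusted p = 0.672), and the share of all genes without overlap in this ratio was not computed. The Igfbp6 values rest on 10 to 39 counts per superficial library and 35 to 86 per deep library.

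That call depended on the rat block. Without it the value was -1.78 and the adjusted p was 0.540, and over the fits that left out 1 rat the adjusted p ran from 0.0080 to 0.092, passing the threshold in 4 of 6 and missing it without CNO replicate 2 (0.086) or CNO replicate 3 (0.092). In the same test 3 of 7 Schwann markers, 4 of 12 fibroblast and meninges markers, 2 of 10 neuron markers and 2 of 7 deep dorsal horn markers had a lower CNO effect in laminae I–II. Of mural cell and of astrocyte markers 1 of 10 each, Myh11 (0.92) and Slc1a3 (0.39), had a higher one. Over all genes 0.429% were called, in either direction. The part of these cells in the Igfbp6 value was not tested. Without the rat of I–II Saline 3, Igfbp6 stood at -1.69 (adjusted p = 0.028).

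The other genes did not pass this test. Igfbp5 had -0.78 (edgeR adjusted p = 0.184), which was -0.20 without the rat of I–II Saline 3 (adjusted p = 0.712) and -1.17 without Saline replicate 1 (adjusted p = 0.0022). Igfbp2 had -0.62 (95% interval -1.06 to -0.19, edgeR adjusted p = 0.280). The signs were negative for 9 of the 10 genes, with a median of -0.43, against 0.0051 over all genes. The receptors stood near 0, at -0.046 for Igf1r and 6.3e-04 for Igf2r.

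Beyond the 10 genes, 37 of 38 further genes of the IGF pathway (other carriers, binding protein proteases, insulin receptor, adaptors, PI3K, Akt and mTOR) were found by symbol. After CNO 0 of 27 tested passed in laminae I–II and 0 of 28 in laminae III–VI, in edgeR. An unadjusted p under 0.05 was found for 4 of the 27 in laminae I–II, against 7.05% of all genes, and for 5 of the 28 in laminae III–VI, against 9.24%. Between the layers 7 were higher and 11 lower in laminae I–II of 28 tested, against 31.3% and 31.2% of all genes, with a median log2 difference of -0.048. Among the 6 with the smallest p were Htra1, a secreted protease that cuts binding proteins (-1.23), Grb10, an adaptor that restrains insulin and IGF receptors (0.74), the PI3K catalytic subunit Pik3cb (-0.61), Stc1, a secreted glycoprotein that inhibits Pappa (1.17), and Tsc1, a brake on mTOR (-0.36). Another 3 genes were picked after their values were seen. The log2 layer difference was -0.67 for Pappa (edgeR adjusted p = 0.0037), a protease that cuts Igfbp4, -0.95 for Pappa2 (adjusted p = 0.0030), which cuts Igfbp5, and 0.29 for the insulin receptor Insr (adjusted p = 1.10e-05). In the interaction 0 of 28 passed, and 2 had an unadjusted p under 0.05, against 9.26% of all genes.

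The genes closest to each family member in pattern were found by Pearson's r of log2 CPM over the 12 libraries after subtracting each layer's mean, among 12066 genes. These values describe libraries that share treatment, depth and dissection. The closest genes are the highest of 12066 values over only 12 libraries, so a high r may arise from that selection alone. Igf1 and Igf2 resembled each other (r = 0.86), and Igf1r had r = 0.79 with Igf1, 0.75 with Igf2 and -0.050 with Igfbp2. The closest genes were Rgs17, Huwe1 and Anks6 for Igf1 (each r = 0.92), Fbrsl1 for Igf1r (0.93), Adra1a for Igf2r (0.90) and Grtp1_1 for Igf2 (0.88). Among binding proteins they were Slco1a4, a transporter of brain vessels, for Igfbp2 (0.94), Arfip1 for Igfbp3 (0.92), Ctsd, a lysosomal protease, for Igfbp6 (0.97), and Ugp2 for Igfbp7 (0.96). For Igfbp5 they were Thbs2 (0.92), St6gal1 (0.89) and Col3a1, whose r of 0.88 was -0.23 without I–II Saline 3.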

How the data were processed

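Per the labels and the study's methods, total RNA of microdissected L5 dorsal horn was rRNA-depleted, made into 12 directional libraries and sequenced as paired ends, and the authors mapped the reads to rn6 with CLC Genomics Workbench 10.1.1; the strand setting is not given in the sources used here. The authors deposited total read counts per gene and, as a signal scaled over the 6 libraries of a layer, quantile-normalized counts. Their test results (p-value, corrected p-value, fold change) and group means were not used.

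Counts were read as deposited. Genes were filtered with filterByExpr (minimum count 10, minimum total 15), libraries scaled by TMM, and groups compared with the quasi-likelihood test of edgeR (version 4.0.16, with R 4.3.3), adjusted after Benjamini and Hochberg at a threshold of 0.05. The SE is the log2 difference over the square root of F. DESeq2 (version 1.42.0) and limma (version 3.58.1) gave alternatives, and Python 3.11.15 searched the promoters. Layers and interaction were fitted over 12 libraries with the rat as a block. The methods take both layers from 3 rats per treatment, so the number was read as the rat, though the labels do not say so. Libraries of a rat deviated together (r = 0.100 to 0.172 across genes, which are not independent). In 12 of 12 cases a library correlated best with its own number among the 3 libraries of the other layer and same treatment. These cases are not independent, since each correlation was used for both of its libraries. Each group of 3 was also centred on its own mean first. CNO and Saline libraries of the same number and layer, from different rats, had r = 0.019 to 0.113. The highest of these was above the 0.100 of Saline rat 2. Whether the number also marks a batch was not tested, and these correlations cannot tell a rat from such a batch. The Igfbp6 interaction was called in edgeR with this block and not without it. Total counts of 5245952 to 7889953 limit genes with few counts. Scripts were tested on simulated data. The 10 genes, all of which are named, and all lists were chosen with earlier results of these data known. Of similar genes the 3 closest were taken and of pathway genes the 6 with the smallest p; not all of these are reported here. Levels of different genes are not compared, since transcript lengths were not used. The Schwann sum without Mbp and Sox10, and the similarity without I–II Saline 3, were added after seeing the data.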

Additional observations from a re-analysis of the deposited data

Results flagged for a closer look

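The CNO effect on Igfbp6 differed between the layers, with a log2 value of -1.74 for the effect in laminae I–II minus that in laminae III–VI (edgeR adjusted p = 0.0094 over 13745 genes). From the same values, the ratio of superficial to deep Igfbp6 was 0.20 to 0.26 in the 3 CNO rats. In the 3 Saline rats it was 0.69 to 0.88, and the share of all genes without overlap in this ratio was not computed. The call was lost in edgeR without the rat block. With 1 rat left out the edgeR adjusted p ran from 0.0080 to 0.092, passing in 4 of 6 fits. Superficial libraries held only 10 to 39 counts of Igfbp6. DESeq2 gave -1.76 with an unadjusted p of 8.30e-04 and no adjusted p. Neither CNO effect passed the test in its own layer (-1.24, adjusted p = 0.353 in laminae I–II; 0.55, adjusted p = 0.521 in laminae III–VI).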

How the results depend on the processing

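Over the alternatives tried, 140 of 144 values of single genes kept direction and side of the threshold for CNO in laminae I–II, 146 of 151 for CNO in laminae III–VI, 243 of 272 between the layers and 112 of 123 in the interaction. The cause of the changes below was not tested. Without the low-count filter, edgeR called 2 genes for CNO in laminae I–II, Igfbp5 (-0.63) and Igfbp6 (-1.22), and 2 in the interaction, Igfbp5 (-0.77) beside Igfbp6. Leaving out 1 library or rat gave 0 calls for CNO in either layer, 7 to 8 between the layers and 0 to 2 in the interaction. With the replicate number as a block, CNO gave 0 calls in each layer, and 78 and 194 genes of all. With no replicate block the interaction gave 0 calls (Igfbp6 at -1.78) and 2 genes of all, against 59, and the layers 7, with Igf2r lost. DESeq2 gave 6 calls between the layers and gave Igfbp6 no adjusted p in the interaction, so no count is given there.

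Between the layers, Saline libraries alone gave 5 calls, losing Igf1r (-0.13), Igf2r (-0.11) and Igfbp6 (-0.28), and CNO libraries alone gave 7. Igf2r was also lost when CNO rat 1 or 3, or Saline rat 1 or 3, was left out (-0.10 to -0.090), and Igfbp4 was called without Saline replicate 1 (0.91, adjusted p = 0.023). With library totals the layer values of Igf1r, Igf2r and Igfbp7 were 0.022, 0.067 and 0.16, the last called, and all genes split into 6607 higher and 2594 lower, against 4301 and 4284 by TMM. Igfbp7 ran from -0.075 to 0.039 when 1 rat was left out and was 0.0087 in Saline libraries alone, and Igfbp4 at -0.083 in CNO libraries alone. For CNO in laminae I–II, with 1 library left out, Igf2 ran from -0.0051 to 0.56 and Igfbp7 from -0.15 to 0.026. For CNO in laminae III–VI, Igfbp7 was -0.032 with library totals and ran from -0.065 to 0.084 with 1 library left out, and Igfbp3 was 0.030 on quantile-normalized counts and ran from -0.073 to 2e-04. In the interaction Igf2r was -0.0093 with DESeq2, -0.0085 with RLE factors and -0.066 to 0.057 with 1 rat left out, and Igfbp7 ran from -0.16 to 0.057. With library totals 1 gene, Igfbp3, had no overlap for CNO in laminae I–II, against 2 by TMM. Levels per transcript length were not run. Igfbp3, Igfbp4 and Igfbp6 rest on 4 to 86 counts per library, which limits their precision.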
